A study of Raphanus sativus with 9 samples.

Results

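In radish (*Raphanus sativus* cv. Taebaek), 32 genes held nearly the same level before, during, and after vernalization. They were taken from 4314 genes of intermediate level, out of 64657 genes listed in all. A steady gene had a mean over the 3 time points from 50 to below 1000 CPM (counts scaled to 1000000 reads counted on genes in each library), a largest group mean at most 1.1 times the smallest, and an SD over 8 libraries of at most 8% of its mean. The genes were thus chosen by their CPM in the same 8 libraries that are described here, and no test of their steadiness is given.

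RNA was sequenced from leaf and root tissue at 3 time points. NV plants, called BV (before vernalization) in the paper, were non-vernalized and 4 weeks old. V plants were 8 weeks old after 4 weeks of cold, and AV plants were 10 weeks old after the same 4 weeks of cold and 2 further weeks in the warm. All groups were of the same cultivar, and plant age increased with each time point. According to the paper, the cold was given in a cold room with its own photoperiod and humidity, and the other growth took place in a greenhouse. Age, cold, light, and humidity therefore cannot be told apart in these libraries. The labels give both tissues for every library and whole seedlings as the source of the RNA, without the share of each tissue, and a change in the share of a tissue cannot be told apart from a change in RNA per cell. The tissue label was not checked here against markers of leaf or root, since the sources used here pair RSG identifiers with names for GSLs genes only. AV-2 and AV-3 had equal counts for 98.7% of 27930 genes that reached 40 counts over both, against 0.359% to 0.899% for other pairs of libraries. AV-3 was therefore left out, which leaves n = 3 for NV, n = 3 for V, and n = 2 for AV. Among the steady genes, 31 of 32 had the same count in AV-2 and AV-3, and the other one differed by 1 count. Between 21119531 and 27606212 reads were counted on genes in each of the 8 libraries.

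Vernalization is the process by which prolonged cold prepares a plant for flowering, and in Brassicaceae it changes the expression of many genes, among them floral repressors that are silenced in the cold. Genes whose transcript level does not follow such a treatment are of practical use as references, because the level of any other gene in RT-qPCR is expressed relative to them. A sequencing count is in the same way relative, since it is scaled to the other reads of its library. A gene that is steady in CPM therefore holds a steady share of the counted reads, which is not the same as a steady number of transcripts per cell. The study normalized its own RT-qPCR to *ACTIN*. No RSG identifier is paired with that name in the sources used here, so its level was not analysed here, and none of the 64657 RSG identifiers matched the RefSeq table of radish genes (0 matches). The steady genes are accordingly given by identifier alone, without function or position.

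The 2 limits on steadiness did unequal work. Of the 4314 genes of the level window, 146 (3.38%) had group means within the limit of 1.1, and 46 (1.07%) had an SD within 8% of the mean. Both limits were met by 32 genes, which is 0.742% of the window. Another 114 genes had similar group means but a wide spread between libraries, and 14 genes had a small spread but group means further apart than the limit. Across the whole window, the median ratio of the largest to the smallest group mean was 1.63 and the median SD was 25.8% of the mean, and 1353 genes (31.4%) had a ratio above 2.

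**Figure D1:**
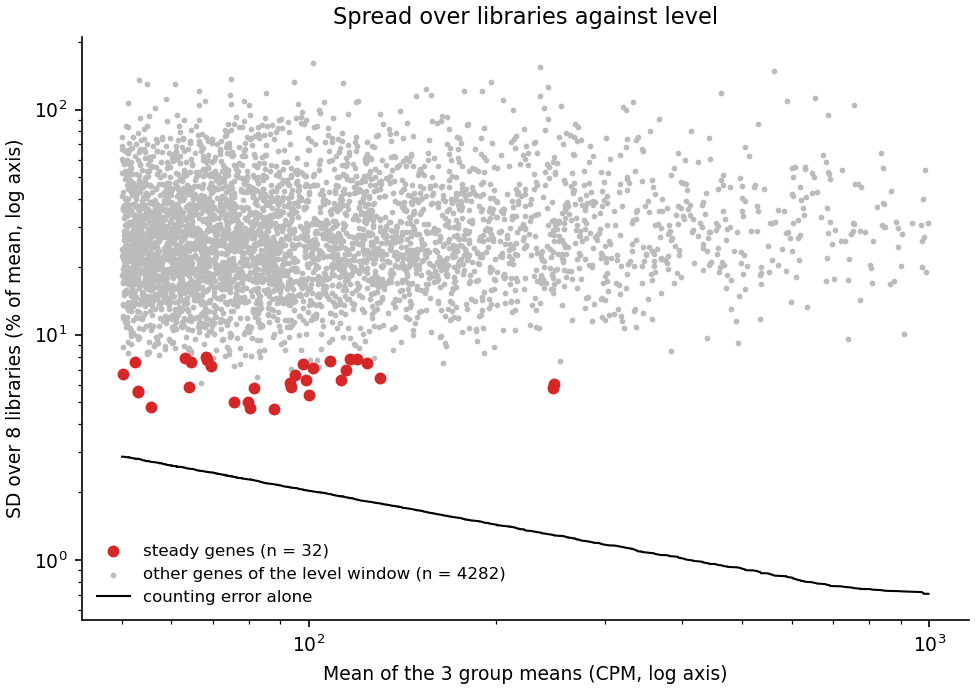
SD over the 8 libraries in percent of the mean (y axis, log) against the mean of the 3 group means in CPM (x axis, log), for the 32 steady genes (red) and the other 4282 genes of the level window (grey). The black line is the SD that counting error alone would give, and the steady genes lie above it, at 4.67% to 7.93% of their means.

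The steady genes had mean levels from 50.2 to 249 CPM, with a median of 90.5 CPM, and between 981 and 7125 counts in a library. Over the whole window, 0.742% of the genes were steady, and the share by level is given here without a test. Of the 1710 genes from 50 to below 75 CPM, 11 were steady (0.643%), and of the 839 genes from 75 to below 100 CPM, 11 were steady (1.31%). Between 100 and 150 CPM, 8 of 778 genes were steady (1.03%), and between 150 and 250 CPM, 2 of 533 genes were steady (0.375%). No gene from 250 to below 1000 CPM was steady, 0 of 454 genes, although counting error is smallest there. By an approximate upper limit, a count of 0 of 454 leaves room for a share of up to 0.661%. This is close to the 0.742% of the whole window, but below it. In that range the median SD was 29.5% of the mean, against 24.9% for genes from 50 to below 75 CPM. CPM was not divided by transcript length, which was not at hand, so that these levels rank read counts and not transcripts.

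The SD of the steady genes over the 8 libraries ran from 4.67% to 7.93% of the mean, with a median of 6.38%. Counting error alone would give 1.29% to 2.87% at their counts, with a median of 2.14%. Their variance was 3.08 to 22.1 times that of counting error, with a median of 9.21 times, whereas the median over the whole window was 161 times. None of the 32 genes had a variance under 2 times that of counting error. Even the steadiest genes of this window thus varied between libraries by more than sampling of reads gives.

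RSG24713 had the smallest relative spread of all 32 genes. Its level was 93.0, 91.8, and 88.4 CPM in NV, 83.2, 90.4, and 85.1 CPM in V, and 82.1 and 90.7 CPM in AV. The 3 time points overlapped, and the means ± SD were 91.1 ± 2.40 CPM in NV (n = 3), 86.3 ± 3.73 CPM in V (n = 3), and 86.4 ± 6.05 CPM in AV (n = 2). The SD over all 8 libraries was 4.67% of the mean.

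RSG29956 followed with an SD of 4.71% of the mean. It had 76.1, 79.1, and 74.9 CPM in NV, 79.6, 82.3, and 84.7 CPM in V, and 79.5 and 85.5 CPM in AV. Each V and AV library was above each NV library in CPM on library totals, where the AV mean was 1.08 times the NV mean. With the TMM scaling described below, the fitted log2 fold change was 0.018 in AV against NV and 0.070 in V against NV. The shift between AV and NV in RSG29956 thus depended on the scaling.

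RSG05811 was among the lowest of the set in CPM and had an SD of 4.77%. It had 54.4, 53.5, and 60.3 CPM in NV, 52.3, 58.7, and 56.5 CPM in V, and 55.1 and 55.5 CPM in AV. The highest and the second lowest value both came from NV, and the group means differed by 1.01 times only. Its variance was 3.08 times that of counting error, the lowest ratio of the set.

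RSG21435 and RSG09661 completed the 5 genes with the smallest spread, and AV had the highest group mean in RSG21435 and the lowest in RSG09661. RSG21435 had 76.3, 73.4, and 80.9 CPM in NV, 82.5, 81.3, and 74.5 CPM in V, and 84.0 and 81.4 CPM in AV, with an SD of 5.0%. RSG09661 had 76.0, 76.6, and 79.3 CPM in NV, 82.4, 74.5, and 78.5 CPM in V, and 69.9 and 73.4 CPM in AV, with an SD of 5.05%. In RSG09661 both AV libraries were below every NV and V library, and its ratio of 1.096 was close to the limit.

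Among the 3 genes with the highest levels, RSG42423 averaged 249 CPM and RSG21238 averaged 247 CPM. RSG42423 had 263, 256, and 259 CPM in NV, 255, 247, and 240 CPM in V, and 261 and 217 CPM in AV. The NV libraries of RSG42423 were close together (259 ± 3.60 CPM, SD, n = 3), and its lowest value came from AV-2. RSG21238 had 221, 267, and 255 CPM in NV, 258, 235, and 248 CPM in V, and 248 and 247 CPM in AV. Its group means of 248, 247, and 247 CPM in NV, V, and AV were the closest of the set (ratio 1.00), whereas its NV libraries alone had an SD of 24.1 CPM (n = 3). Equal group means thus hid a spread between replicates in RSG21238 that was wider than the distance between time points. The third of these genes, RSG29390, had 118, 132, and 133 CPM in NV, 122, 137, and 125 CPM in V, and 143 and 127 CPM in AV.

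At the lower end of the window, RSG02889 had 49.4, 51.0, and 49.4 CPM in NV, 49.9, 55.4, and 44.1 CPM in V, and 53.4 and 48.5 CPM in AV. Its highest and its lowest value both came from V, so that its spread lay within a time point. RSG28722 had 54.8, 50.5, and 52.1 CPM in NV, 51.8, 47.1, and 55.4 CPM in V, and 59.2 and 48.1 CPM in AV. In RSG28722 the AV libraries held both the highest value of all 8 and the second lowest. RSG30354 had 55.1, 56.1, and 50.2 CPM in NV, 51.5, 56.8, and 49.3 CPM in V, and 50.8 and 55.2 CPM in AV, with groups that overlapped throughout.

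**Figure D2:**
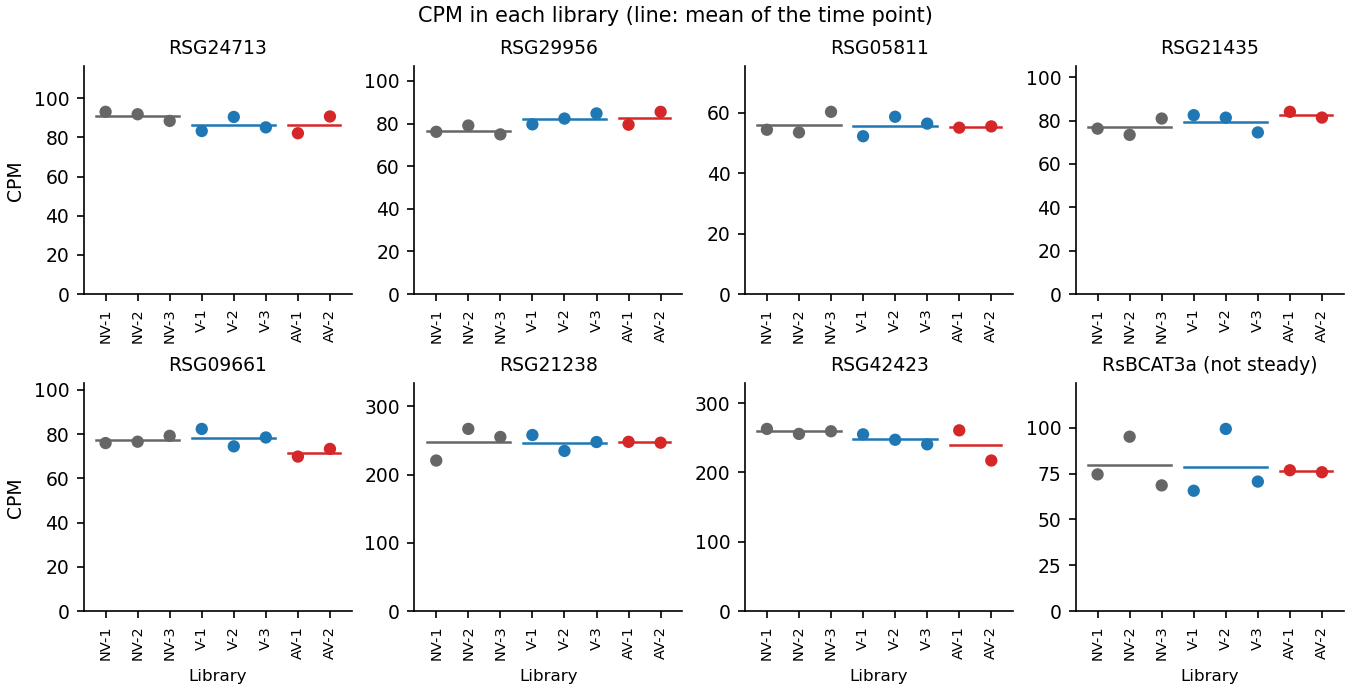
CPM (y axis, from 0) in each of the 8 libraries (x axis) for the 5 genes with the smallest spread, the 2 with the highest level, and *RsBCAT3a*, a glucosinolate gene that met only the limit on group means. Points are libraries and lines are means of the time points. In *RsBCAT3a*, NV-2 (95.1 CPM) and V-2 (99.4 CPM) stood above the other libraries, whose values ran between 65.7 and 76.9 CPM.

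The limits cut through a continuous range of values. Just inside the limit on group means were RSG09661 (ratio 1.096) and RSG04374 (ratio 1.097). RSG04374 averaged 118 CPM in NV, 129 CPM in V, and 124 CPM in AV. Just outside were RSG10108 (ratio 1.101, SD 7.02%) and RSG24254 (ratio 1.102, SD 6.08%). Just inside the limit on the spread were RSG37079 (SD 7.85%) and RSG07054 (SD 7.93%), and just outside were RSG12665 (SD 8.06%) and RSG20838 (SD 8.13%). RSG20838 had group means of 78.1, 80.02, and 78.6 CPM in NV, V, and AV, so that it missed the set by its spread between replicates alone.

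The small differences that the limits left were examined by time point, in CPM on library totals. The highest group mean was that of NV in 11 genes, that of V in 10 genes, and that of AV in 11 genes. With the 3 other scalings, by contrast, the fitted log2 fold change was negative in 27 to 32 of the 32 genes in AV against NV and in 26 to 31 of them in AV against V, and none of these changes passed the test. The 11 genes highest in NV were RSG24713, RSG05811, RSG16271, RSG30354, RSG15391, RSG21238, RSG42423, RSG35184, RSG20485, RSG33196, and RSG22532. The 10 genes highest in V were RSG09661, RSG19162, RSG43717, RSG40830, RSG13096, RSG33333, RSG04374, RSG10971, RSG37079, and RSG07054. The 11 genes highest in AV were RSG29956, RSG21435, RSG10060, RSG35428, RSG29390, RSG02889, RSG07044, RSG28722, RSG07301, RSG17007, and RSG32435. The group means increased at both steps in 6 of the 32 genes and decreased at both steps in 4. No 2 of the genes had consecutive identifiers, and the closest were 10 numbers apart.

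Within time points, the steady genes were also less spread than the rest of the window, as the limit on the SD required. The median SD within NV was 6.52% of the mean for the steady genes and 13.8% for the other 4282 genes of the window. Within V the medians were 5.86% for the steady genes and 10.5% for the other genes, and within AV they were 5.11% and 7.39%. Single steady genes reached 12.2% in NV, 12.8% in V, and 14.5% in AV. The AV values rest on n = 2 libraries.

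The libraries differed in how many of the 32 genes were above or below their own mean. In NV-3, 22 of them were above their own mean, with a median of 103% of it, and in AV-1, 21 of them were above, with a median of 102%. In NV-1 only 10 were above their mean (median 97.6%), and in AV-2 only 11 were (median 97.8%). The highest value of a gene came from NV-3 in 8 genes, and the lowest came from NV-2 in 7 genes and from NV-1 in 6 genes. Summed over the 32 genes, the level ran from 2988 CPM in NV-1 to 3163 CPM in NV-3, or 0.299% to 0.316% of all counts on genes. The lowest and the highest library median thus both came from NV, so that replicates of the same time point spanned the whole range.

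**Figure D3:**
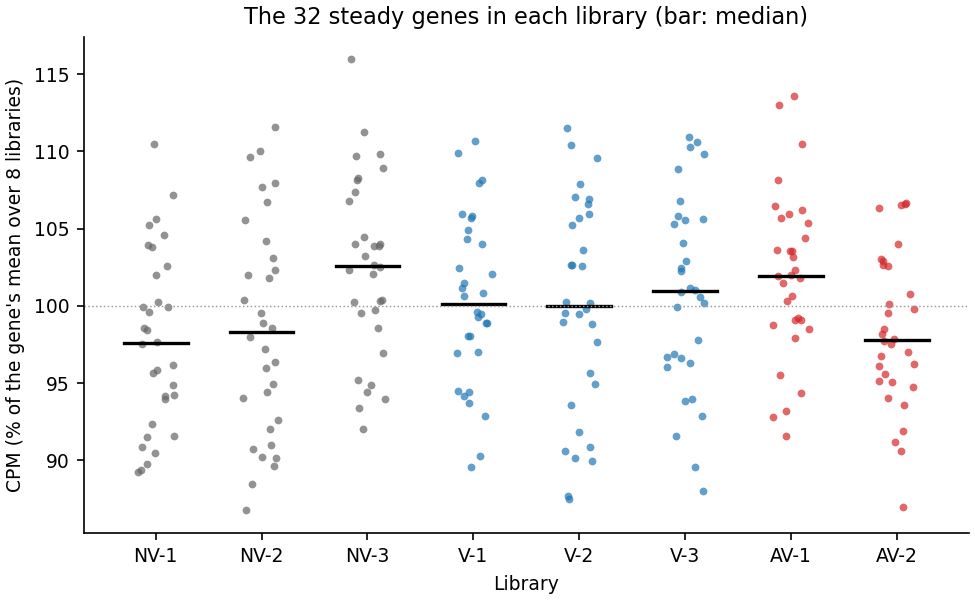
CPM of each of the 32 steady genes in percent of its own mean over 8 libraries (y axis) by library (x axis, coloured by time point), with the median as a black bar. The medians run from 97.6% in NV-1 to 103% in NV-3, and single genes run from 86.8% in NV-2 to 116% in NV-3.

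The ratio of 2 genes within a library does not depend on how the library is scaled. Over the 496 pairs of steady genes, the SD of the log2 ratio over the 8 libraries ran from 0.044 to 0.21. For a single gene, the average of this SD over its 31 partners was lowest in RSG05811 (0.109) and highest in RSG22532 (0.158), with a median of 0.127. The steadiest pair, chosen after its values were seen, was RSG07054 with RSG13096. RSG07054 had between 0.696 and 0.754 times the CPM of RSG13096 in every library, although RSG07054 had the largest SD, in percent of the mean, of the set. The least steady pair was RSG33196 with RSG37079, where the ratio ran from 1.27 to 1.94.

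A library that takes no part in the choice gives a measure that the limits did not use. Each of the 8 libraries was left out in turn, the same limits were applied to the other 7, and the genes taken were then read in the library left out. Between 28 and 53 genes were taken in this way. In V-1, 24 of 32 genes (75%) lay within 10% of their level in the other 7 libraries, against 28.4% of the other genes of the window. In V-3 it was 64.7% against 28.3%, in AV-1 64.3% against 29.3%, in NV-1 62.9% against 28.7%, and in AV-2 56.3% against 27.1%. The shares were lower in NV-3 (44.7% against 24.4%), NV-2 (39.6% against 23.1%), and V-2 (32.1% against 23.6%). In every library left out, the share was higher for the genes taken than for the other genes of the window, with the smallest distance in V-2. The other genes are those that failed the limits in the 7 libraries, so that a lower share in them follows in part from the choice. The comparison therefore serves as a description only. With an AV library left out, the AV mean rests on a lone AV library.

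The genes taken without V-2 show what a single library can change. Without V-2, 53 genes met the limits, and 22 of these were among the 32. In V-2 itself the 53 genes differed from their level elsewhere by a median of 15.5% in either direction, and single genes differed by -33.9% to 55.7%. Genes taken without NV-2 (48 genes) differed by -32.8% to 55.4% in NV-2. By contrast, the 34 genes taken without V-3 differed by -14.7% to 14.5% in V-3. V-2 had the lowest share of reads outside annotated genes (3.24%, against 4.32% to 7.67% in the other 7 libraries), and NV-2 had 6.22%. The part of these shares in the result was not tested.

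**Figure D4:**
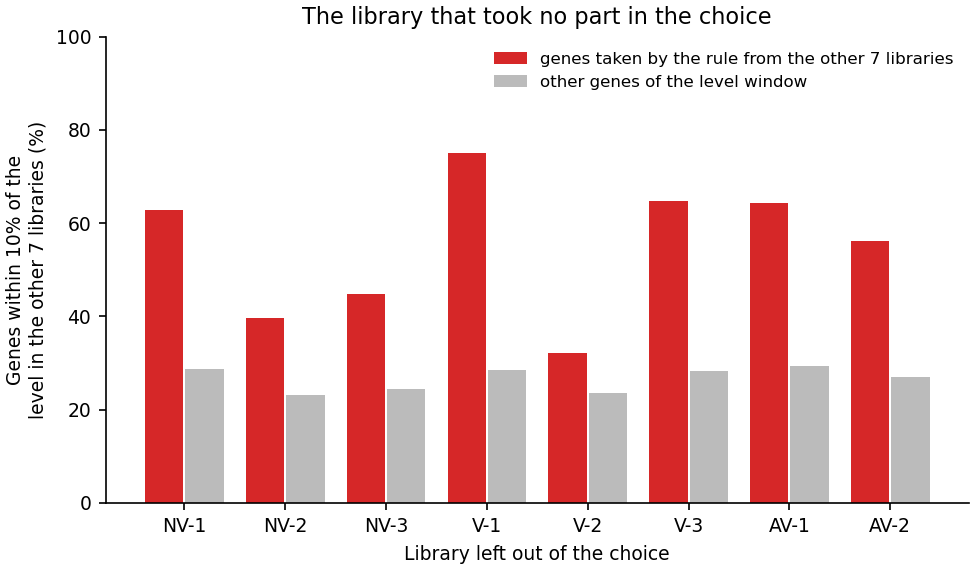
Share of genes within 10% of their level in the other 7 libraries (y axis, percent) for each library left out of the choice (x axis). Red bars are the genes that the limits took from the other 7 libraries, and grey bars are the other genes of the level window. Red bars run from 32.1% in V-2 to 75% in V-1 and grey bars from 23.1% to 29.3%.

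Steadiness in CPM depended on the scaling. Library totals treat every read alike, whereas TMM, the default of edgeR, scales each library so that most genes agree, and its factors ran from 0.959 in NV-3 to 1.06 in AV-2. On TMM-scaled CPM, 23 genes met the same limits, of which 16 were among the 32. The median of the 32 genes was then 107% of their own mean in NV-3 and 92.4% in AV-2, against 103% and 97.8% on library totals. Of the 16 genes that were lost, 9 exceeded the limit on group means and 10 exceeded the limit on the spread, with 3 genes in both counts. RSG24713, with the smallest spread on library totals, was among those lost, since its largest group mean became 1.12 times the smallest. RSG29956 had an SD of 3.49% on TMM-scaled CPM, against 4.71% on library totals, and was kept.

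Over 3 other scalings and 8 sets that each leave out 1 library, 5 of the 32 genes met the limits in all 11 cases. These were RSG05811, RSG10060, RSG21238, RSG30354, and RSG35428, and they were chosen after their values were seen. RSG10060 had 95.3, 83.9, and 101 CPM in NV, 94.3, 85.4, and 95.3 CPM in V, and 94.6 and 93.7 CPM in AV. RSG35428 had 109, 89.9, and 99.1 CPM in NV, 95.7, 98.3, and 92.7 CPM in V, and 100 and 105 CPM in AV. In both genes the NV libraries held the highest and the lowest value of all 8. At the other end, 16 genes met the limits under none of the 3 scalings, and RSG37079 met them in only 2 of the 8 sets that leave out a library.

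Fold changes of the 32 genes were fitted together with all other genes in edgeR, and because the comparisons are those that chose the genes, they serve as a description only. In V against NV, none of the 32 genes was called at an adjusted p under 0.05 by edgeR's quasi-likelihood test, where 38.5% of the 32043 genes tested were called. In AV against NV none was called, where 36.8% of all genes tested were called, and in AV against V none was called, where 31.6% were. At an unadjusted p under 0.05 the count by edgeR's test was 0 in each comparison as well. The count by DESeq2's Wald test, at an adjusted p under 0.05, was also 0 in each. These counts follow from the limits and say nothing further about the genes. The 3 comparisons share their libraries pairwise.

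The size of the fitted log2 fold change exceeded the gene's own standard error in 1 of the 32 genes in V against NV, in 6 in AV against NV, and in 2 in AV against V. In V against NV they ran from -0.15 to 0.10 with a median of -0.03, and the median standard error was 0.15. The median over all genes tested was 0.01, and their median absolute log2 fold change was 0.48, against 0.061 for the steady genes. In AV against NV they ran from -0.22 to 0.023 with a median of -0.06 (median standard error 0.17), and the median over all genes tested was 0. In AV against V they ran from -0.19 to 0.045 with a median of -0.05 (median standard error 0.17), and the median over all genes tested was -0.02. With standard errors of this size, differences of the order of 10% cannot be resolved for a single gene at this number of libraries.

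Whether the set sits above or below 0 in AV changed with the scaling. In AV against NV, 27 of the 32 genes had a negative log2 fold change with TMM, 29 with DESeq2's size factors, and all 32 with upper quartile scaling, but only 13 with library totals. The median of the 32 genes was -0.06 with TMM, -0.07 with DESeq2's size factors, -0.09 with upper quartile scaling, and 0.022 with library totals. In V against NV, 21 genes were negative with TMM and 16 with library totals. The largest fitted change in V against NV was that of RSG35184 (log2 fold change -0.15), with 114, 99.1, and 116 CPM in V, against 117, 122, and 118 CPM in NV. In AV against NV it was that of RSG20485 (-0.22), with 66.1 and 65.9 CPM in AV, against 69.0, 66.5, and 81.3 CPM in NV. In RSG35184 every V library was below every NV library, and in RSG20485 both AV libraries were below every NV library, in CPM on library totals. In AV against V it was that of RSG09661 (-0.19), described above.

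Glucosinolates (GSLs) are sulfur-containing defense compounds of Brassicaceae, and the study followed their metabolism through vernalization. Its gene table holds 94 distinct RSG identifiers, a number that differs from the count in the table's title, and all of them were used. Of these 94 genes, 35 lay in the level window, and none of them was steady. Since only 0.742% of the whole window was steady, 0 of 35 genes does not set GSLs genes apart. The median ratio of the largest to the smallest group mean was 3.81 for these 35 genes, against 1.63 for the whole window. A ratio above 2 was found in 26 of the 35 genes, against 31.4% of the whole window. By class, the median ratio was 1.42 for the 5 of 32 listed indolic genes that lay in the window. It was 3.40 for 20 of 47 aliphatic genes, and 6.45 for 10 of 15 breakdown genes. These medians do not cover the genes outside the window, such as *RsCYP81F4* of the indolic class (ratio 23.0). All 10 breakdown genes, which include homologs of the myrosinases TGG1 and TGG2 that hydrolyse GSLs, had a ratio above 2. They did not move alike. The homologs of PEN2 and PEN3 among them had their highest group mean in AV, and *RsTGG1e* had it in V. The other TGG1 and TGG2 homologs of the window had it in NV.

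*RsBCAT3a*, a homolog of an aminotransferase of methionine side-chain elongation in Arabidopsis, was the only one of the 35 genes with group means within the limit. In the whole window 3.38% of the genes met that limit, so that 1 of 35 genes does not set GSLs genes apart. The means ± SD of *RsBCAT3a* were 79.4 ± 13.9 CPM in NV (n = 3), 78.6 ± 18.2 CPM in V (n = 3), and 76.3 ± 0.760 CPM in AV (n = 2), a ratio of 1.04. It had 74.6, 95.1, and 68.6 CPM in NV, 65.7, 99.4, and 70.7 CPM in V, and 76.9 and 75.8 CPM in AV. The NV-2 and V-2 libraries were each the highest of their time point, and the SD over the 8 libraries was 15.7% of the mean, so that *RsBCAT3a* missed the limit on the spread.

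The next smallest ratios were those of *RsIGMT5* and *RsCYP83B1*, both of the indolic branch. *RsIGMT5*, a homolog of an indole GSL methyltransferase, averaged 93.4 CPM in NV, 123 CPM in V, and 124 CPM in AV, a ratio of 1.33. *RsCYP83B1*, a homolog of the cytochrome P450 that oxidizes indole-3-acetaldoxime, averaged 214 CPM in NV, 236 CPM in V, and 291 CPM in AV, a ratio of 1.36. Both were chosen after their values were seen.

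**Figure D5:**
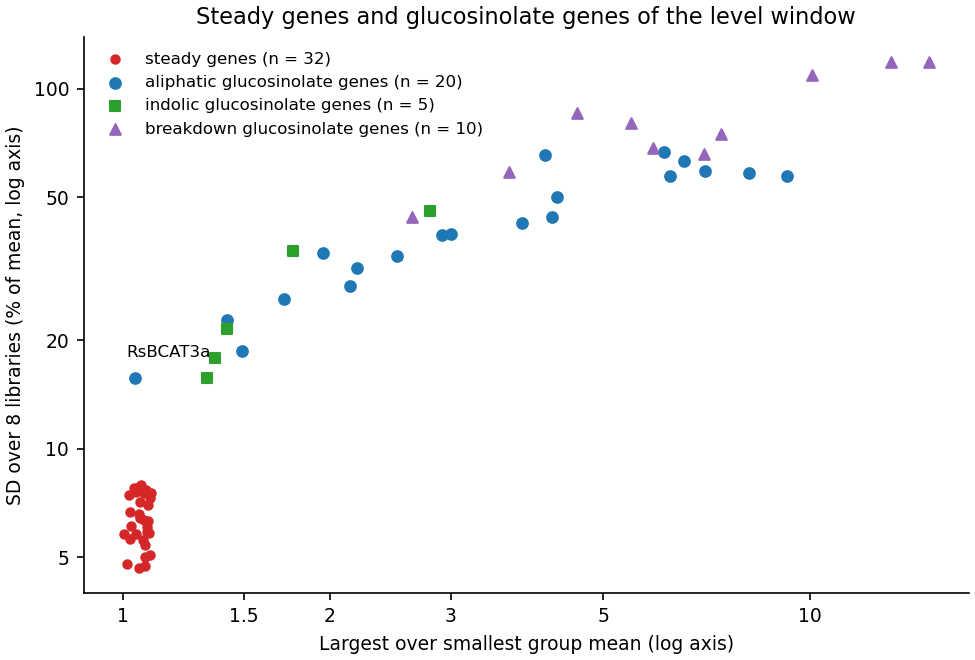
SD over the 8 libraries in percent of the mean (y axis, log) against the ratio of the largest to the smallest group mean (x axis, log) for the 32 steady genes and the 35 GSLs genes of the level window. The steady genes fill the lower left corner by their definition, *RsBCAT3a* lies above them at 15.7%, and the breakdown genes reach the largest ratios.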

How the data were processed

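The authors trimmed reads of stranded mRNA libraries, aligned them by Tophat2 (default parameters) to the radish genome of Nodai, and deposited unnormalized counts of reads per gene, made with HTSeq-count. Tool versions and the strand and counting mode are not given in the sources used here. HTSeq-count sets aside reads with several alignments, which lowers the counts of near-identical genes. The rows of reads not assigned to a gene (4.27% to 8.89% of reads in the 8 libraries) were left out. CPM was computed as the count divided by the library sum over genes times 1000000. The SD has the denominator n - 1. Neither the labels nor the paper names a sequencing batch.

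The 32 genes, the gene list, and the tests were chosen with earlier results of these data known. AV-3 was left out as a near copy of AV-2, although labels call it a replicate. The paper lists different read totals and mapping rates for AV-2 and AV-3. Why their deposited counts are nearly equal was not tested. The floor of 3 counts was 0.109 to 0.142 CPM in these libraries and covers counting error only. The counting error of a gene was taken as the Poisson SD at its mean level and the 8 library sizes. All genes that passed edgeR's filterByExpr were fitted together by glmQLFit (edgeR 4.0.16, R 4.3.3) after TMM normalization, with Benjamini-Hochberg adjustment over all 32043 genes. The standard error is the log2 fold change divided by the square root of F. Replicates were called biological by the authors. The rule and CPM were computed with pandas 2.3.3 under Python 3.11.15. Genes were named when they were on the list of GSLs genes and met a limit, when they were among the 5 with the smallest spread, the 3 with the highest or the 3 with the lowest level, when they were the 2 nearest inside or outside a limit, or when they had the largest fitted change in a comparison. Other genes given with values were chosen after their values were seen. These were *RsIGMT5*, *RsCYP83B1*, the extreme pairs of genes, the extremes over partners, and the genes kept in all 11 cases of scaling and left-out library. Alternatives were other scalings, limits, filters, the DESeq2 1.42.0 test, a replicate block, and the handling of AV-3.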

Additional observations from a re-analysis of the deposited data

How the results depend on the processing

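The number of steady genes stayed within 1.5 times of 32 under TMM scaling (23 genes), DESeq2's size factors (23), upper quartile scaling (25), the mean of AV-2 and AV-3 (32), all 9 libraries (34), a ratio limit of 1.2 (46), and, as an alternative chosen after seeing the data, an SD with the denominator n (40). It moved to 10 genes with group means at most 5% apart, to 3 genes with a limit on the SD of 5% of the mean, to 61 with a limit of 10%, and to 64 with a level from 20 CPM; these follow from the limits themselves. With each library left out in turn it ran from 28 to 53, and the highest value was that without V replicate 2. Membership changed as well. Among the 32 were 16 of the 23 genes with TMM, 15 of 23 with DESeq2's size factors, and 15 of 25 with upper quartile scaling. With a library left out, between 19 (without AV replicate 1) and 28 (without NV replicate 2) of the 32 genes were kept.

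The steady genes called stayed at 0 in all 3 comparisons under each alternative tried. Over all genes, adding a minimum of 1 for the size of the log2 fold change gave 6764 genes in V against NV, 7068 in AV against NV, and 5944 in AV against V. With each library left out, the counts ran from 9658 to 12578 in V against NV, from 7449 to 12480 in AV against NV, and from 5992 to 11525 in AV against V. The lowest counts in the comparisons with AV came from leaving out an AV library, which leaves a lone AV library assumed to vary like the other groups. Without AV replicate 1 the counts were 7601 in AV against NV and 5992 in AV against V, and without AV replicate 2 they were 7449 and 6320. The shares of higher calls over all genes moved by under 10 percentage points with the scaling, but the direction with more calls changed. In V against NV the share was 49.9% with TMM and 52.7% with library totals. In AV against NV it was 46.2% and 53.3%, and in AV against V 46.5% and 51.3%. The paper does not state that replicate numbers pair the libraries, and they were not treated as paired. The deviations of V and NV libraries with the same number had r = 0.051, 0.234, and 0.114 across genes (genes are not independent replicates). For different numbers r was -0.191, 0.147, -0.043, -0.195, 0.008, and -0.125. The values for the same number were all positive and held the highest of all. The value of 0.147 for different numbers was, however, above 0.051 and 0.114. Deviations were taken from the mean of each group, so that these values depend on one another. They therefore cannot decide whether the libraries were paired. With the replicate block, 13076 genes were called in V against NV, 12053 in AV against NV, and 10270 in AV against V, and none of the steady genes.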
